A study of Mus musculus with 144 samples.

Results

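Gene expression was compared between podocytes of BTBR ob/ob mice and podocytes of BTBR WT mice at 6 weeks of age. The libraries were chosen by the cell type, genotype and age in their labels, which gave 8 ob/ob and 8 WT libraries, 16 of the 144 libraries in the series. Each genotype held 4 females and 4 males. BTBR ob/ob mice carry no working copy of Lep, the gene of the satiety hormone leptin, and develop obesity and insulin-resistant diabetes on the BTBR background, whereas the WT mice carried the intact gene. Both genotypes also carried a membrane Tomato/EGFP reporter switched by a Cre transgene under a podocyte-specific promoter, so that podocytes turned from red to green. Glomeruli were isolated with magnetic beads and digested, and podocytes were sorted as EGFP-positive, Tomato-negative, CD73-negative and CD45-negative cells. A podocyte in which this promoter did not drive Cre was therefore not collected. Podocytes at 12 and 18 weeks, and mesangial cells and glomerular endothelial cells (gECs) at 6 weeks, served only to ask where the 6-week podocyte response differed.

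Podocytes are terminally differentiated epithelial cells that wrap the glomerular capillaries. Their interdigitating foot processes, held in shape by actin, are joined by the slit diaphragm, a cell junction built on nephrin, and rest on a basement membrane of collagen IV and laminin that they help to make. In diabetes the foot processes widen and shorten, the basement membrane thickens, and podocytes are lost into the urine. Podocytes respond to insulin, take up glucose through regulated transporters and hardly divide.

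The 16 libraries held 22.5 to 32.5 M counts (WT 22.5 to 29.4, ob/ob 27.4 to 32.5) and 18828 to 20597 detected genes. The sex-linked genes matched the sex on the label in all 16 libraries, and Lep itself had 0 counts in each of them, so it did not check the genotype. Mitochondrial RNA, most of it ribosomal, took 6.77 to 8.41% of the counts in WT and 7.72 to 10.0% in ob/ob libraries. Markers of other cell types were low beside those of podocytes. The 14 podocyte markers summed to 46468 to 57469 CPM (counts per M counts, after scaling) in WT and 50803 to 57974 CPM in ob/ob libraries, and by gene 2 of them rose and 5 fell. The 8 mesangial markers summed to 28.7 to 76.3 CPM in WT and 18.8 to 62.2 CPM in ob/ob libraries, and the 9 gEC markers to 23.6 to 38.5 and 22.3 to 38.2 CPM. The 10 immune markers stayed at or under 12.1 CPM and the 6 fibroblast markers at or under 2.33 CPM. These samples are bulk RNA, so fewer cells of a subtype and less RNA per cell cannot be told apart.

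Of 17366 genes tested, 2814 (16.2%) differed between ob/ob and WT podocytes at an adjusted p under 0.05 by the quasi-likelihood test of edgeR, adjusted after Benjamini and Hochberg. A total of 1681 genes were higher (9.68%) and 1133 lower (6.52%) in ob/ob. On the TPM scale, a transcript abundance that also corrects for length, 776 of the 17366 genes were called higher and 1478 lower. That setting used limma on log2(TPM + 1) without the scaling used for CPM, so test, scaling and length correction changed together. The split between directions thus differed between the 2 settings, and the cause was not tested. List counts on the TPM scale are to be read against these TPM totals, not against 9.68% and 6.52%. Most differences were small: 404 called genes (2.33%) changed at least 2-fold, 292 of them higher (1.68%) and 112 lower (0.645%). The median log2 fold change over all tested genes was -0.01. In 425 genes (2.45%) all 8 ob/ob libraries lay above all 8 WT libraries, and in 206 genes (1.19%) they all lay below.

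The genes described first were taken from the 12 with the highest and the 12 with the lowest log2 fold change among called genes with a mean of at least 5 CPM in the higher group and no overlap between the genotypes. For these genes the absence of overlap was a condition of choice and not a result. The genes that rose most were barely detected in WT podocytes. They included an innate receptor, a glucose transporter, an anticoagulant receptor, a growth factor and an albumin receptor. Tlr5, the receptor for bacterial flagellin, had 0, 0.284 and 0.444 CPM as the lowest, median and highest of the WT libraries and 4.73, 6.39 and 12.3 CPM in ob/ob libraries, and the values of other genes are given in the same order. The lowest ob/ob library lay above the highest WT library, and the log2 fold change was 4.91 ± 0.59 (SE, adjusted p = 2.05e-08 in edgeR's test). Slc2a4 encodes GLUT4, the glucose transporter that insulin moves to the surface of muscle and fat cells. It had 0.0381, 0.288 and 0.787 CPM in WT and 2.20, 6.78 and 9.46 CPM in ob/ob libraries (log2 fold change 4.29 ± 0.43, adjusted p = 1.52e-10). The groups did not overlap, although 1 ob/ob library stood well below the other seven.

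Lgals3, the gene of the galactose-binding protein galectin-3, ranged over 0.433, 1.16 and 1.97 CPM in WT and 11.7, 26.3 and 36.6 CPM in ob/ob libraries (4.28 ± 0.30, adjusted p = 4.04e-14). Thbd, which encodes the anticoagulant receptor thrombomodulin, had 0.916, 1.76 and 4.33 CPM in WT and 12.1, 44.7 and 59.2 CPM in ob/ob libraries (4.19 ± 0.33, adjusted p = 1.22e-12). Clu encodes the secreted chaperone clusterin, and its values of 0.496, 2.59 and 3.37 CPM in WT and 13.1, 31.2 and 67.2 CPM in ob/ob libraries gave a log2 fold change of 3.89 ± 0.26 (adjusted p = 1.15e-14). For these 3 genes the lowest ob/ob library was above 2 times the highest WT library.

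Gdnf, a growth factor known from kidney branching and neuron survival, rose from 0.534, 1.70 and 5.82 CPM in WT to 17.1, 26.0 and 42.3 CPM in ob/ob libraries (3.77 ± 0.39, adjusted p = 1.04e-09). Cubn encodes cubilin, the endocytic receptor that takes up albumin and vitamin B12 in the proximal tubule. It rose from 0.343, 0.930 and 2.05 CPM to 9.00, 10.7 and 22.1 CPM (3.53 ± 0.26, adjusted p = 1.13e-13). The tubule markers other than Cubn summed to 6.73 to 16.4 CPM in WT and 8.51 to 20.0 CPM in ob/ob libraries and overlapped, and Lrp2, the partner receptor megalin, was not called (-0.42). Also among the 12 that rose most were the matrix protein gene Spon2 (3.99), Tnfsf10 (3.50), which encodes the death ligand TRAIL, Prune2 (3.41) and Pdgfa (3.33), a ligand of the PDGF alpha receptor. These 4 were separated between the genotypes, as the choice required.

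The genes that fell most kept detectable levels in ob/ob podocytes. Creg2 fell from 7.42, 11.4 and 22.0 CPM in WT to 0.493, 1.21 and 2.90 CPM in ob/ob libraries (-3.03 ± 0.30, adjusted p = 3.12e-10). Tlr7, the endosomal receptor for single-stranded RNA, fell from 23.7, 34.6 and 43.4 CPM to 3.42, 7.33 and 12.9 CPM (-2.20 ± 0.17, adjusted p = 1.49e-13). Epas1, which encodes the hypoxia-inducible factor HIF-2 alpha, fell from 42.8, 54.7 and 66.8 CPM to 12.4, 20.5 and 32.2 CPM (-1.41 ± 0.20, adjusted p = 1.29e-06). In these genes no ob/ob library reached the lowest WT library. Ctsh, the lysosomal protease cathepsin H, was tightly grouped in WT podocytes at 27.0, 31.5 and 34.3 CPM and lay at 8.10, 12.3 and 18.0 CPM in ob/ob (-1.34). Snx31, an endosomal sorting nexin, fell by 1.26 on the log2 scale and Ptpru, a receptor tyrosine phosphatase, by 1.59. The other 6 were 2610204G07Rik (-2.18), Fbln7 (-1.73), Lypd1 (-1.59), the retinaldehyde reductase gene Dhrs3 (-1.56), Trp53i11 (-1.40) and Mgat5b (-1.32).

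**Figure D1:**
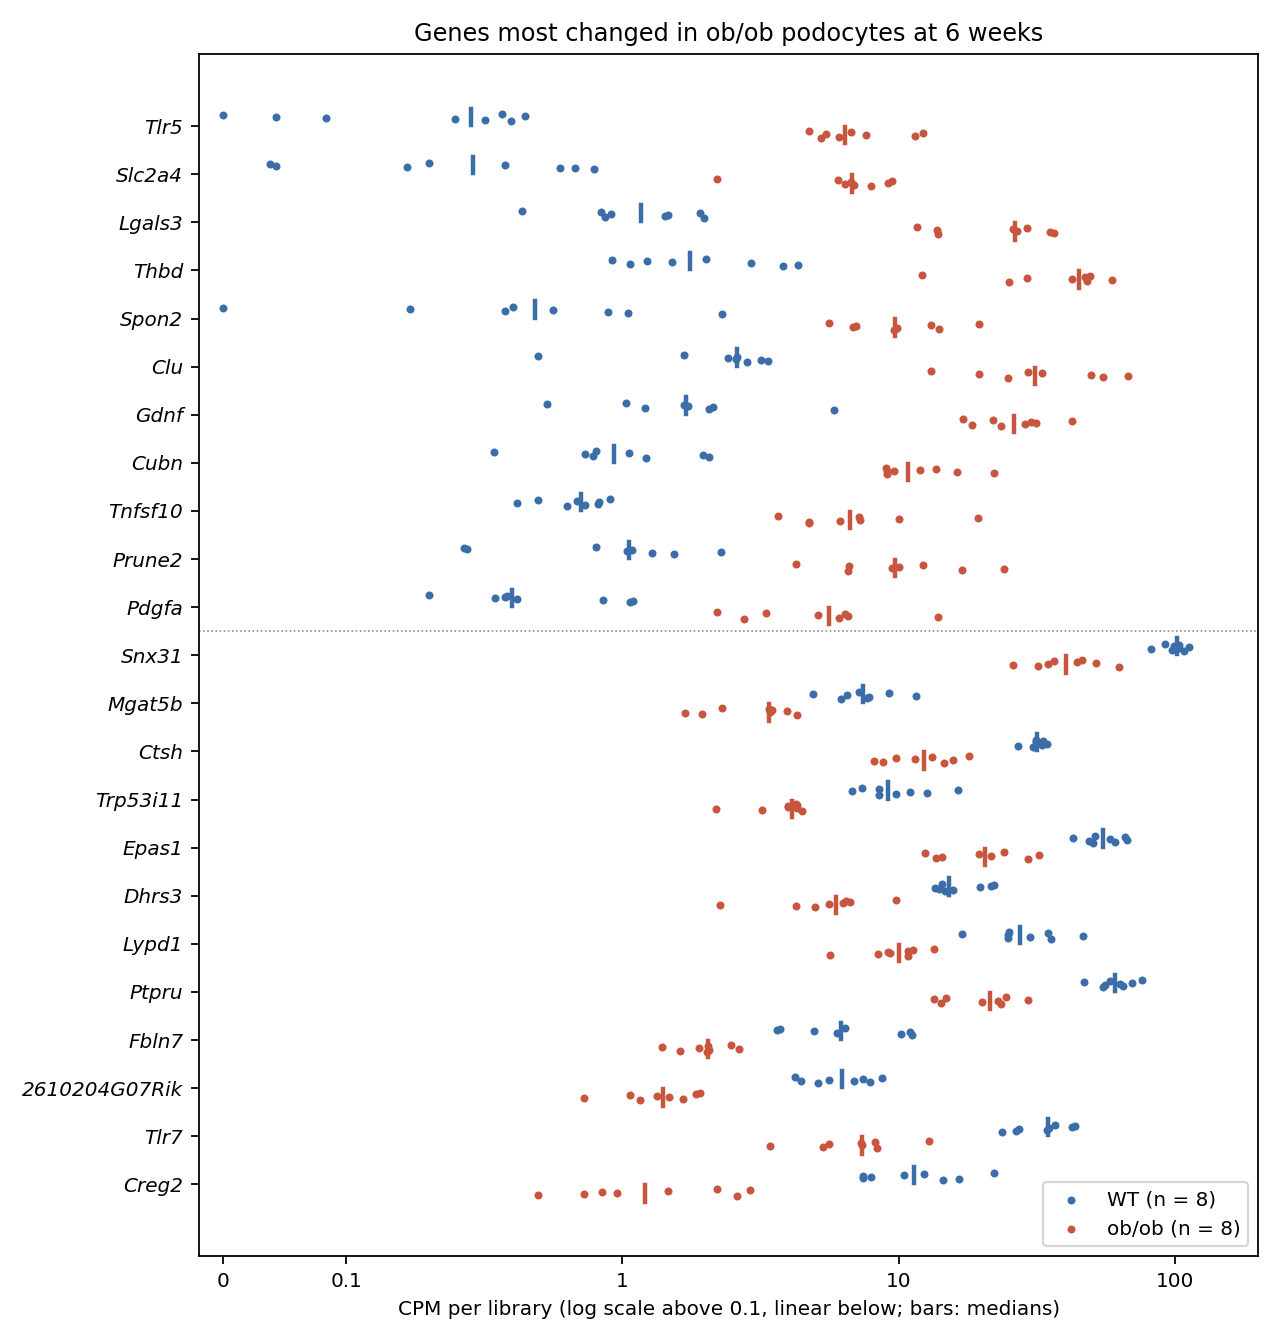
CPM in each of the 8 WT (blue) and 8 ob/ob (red) podocyte libraries at 6 weeks, with medians as bars, for 11 of the 12 genes that rose most (above the dotted line) and the 12 that fell most. The clouds do not overlap in any row, since absence of overlap was required of these genes, and the genes that rose lie near or below 3 CPM in most WT libraries.

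Among abundant transcripts the shifts were smaller in ratio and larger in mass. Iqgap1 encodes a scaffold that links calcium, actin and cell junctions, and it rose from 647, 759.9 and 1114 CPM to 1961, 2307 and 2864 CPM (1.52 ± 0.11, adjusted p = 4.24e-14). Its groups lay far apart, and its fold change was the largest among the 7 abundant genes named here that rose. Mgat5, a glycosyltransferase that branches N-glycans (0.61), the giant scaffold gene Ahnak (0.56), the junction gene Cgnl1 (0.44), Timp3, an inhibitor of metalloproteases (0.40), Dag1, which encodes dystroglycan (0.38), and the motor gene Myo1e (0.78) also gained most in CPM. In the other direction, Ptpro fell from 2324, 2642 and 2813 CPM to 1544, 1829 and 2032 CPM (-0.50 ± 0.06, adjusted p = 6.42e-09), again without overlap. Thsd7a, a podocyte surface protein and autoantigen of membranous nephropathy (-0.48), Angptl2 (-0.51), the peptidase gene Dpp4 (-0.31), the cell cycle inhibitor gene Cdkn1c (-0.31), the cytolinker gene Dst (-0.23) and 2 MHC class I genes, H2-Q6 (-0.33) and H2-Q7 (-0.35), lost most. Reads of the H2-Q genes can come from near-identical copies, so the share of each is uncertain, and H2-Q6 lost its call without ob/ob female 2, 3 or 4 (log2 fold change -0.30 to -0.29).

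The gene lists below were drawn up with earlier results of these data known. An excess of called members over all genes may thus be built into a list, and the shares are a description. The slit diaphragm genes were split, with more falling than rising. Of 24 genes tested, 4 rose (16.7%, against 9.68% of all genes) and 7 fell (29.2%, against 6.52%), with a median log2 fold change of -0.05. On the TPM scale 2 rose and 10 fell. Nphs1, the gene of nephrin, had 2349, 2955 and 3054 CPM in WT and 2521, 2713 and 2920.2 CPM in ob/ob libraries and was not called (-0.07 ± 0.06, adjusted p = 0.476). Kirrel2, a member of the Neph family of nephrin partners, rose from 30.1, 46.0 and 55.3 CPM to 72.6, 89.1 and 117 CPM (1.06 ± 0.09, adjusted p = 2.50e-12). The genes that fell encode, among others, the receptor phosphatase Ptpro (above), the phospholipase Plce1 (-0.34), the scaffold Magi2 (-0.28), dynamin-2 (Dnm2, -0.28) and the polarity kinase Prkci (-0.25). Mutations in NPHS1, PLCE1, PTPRO, MAGI2 and MYO1E are known causes of inherited nephrotic syndrome, and in these podocytes their mouse genes moved in different directions or were not called.

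Foot process actin genes rose far more often than they fell. Of 52 tested, 23 rose (44.2%, against 9.68% of all genes) and 2 fell (3.85%, against 6.52%), with a median of 0.15, and on the TPM scale 17 rose and 4 fell. Csrp1, a LIM protein of actin bundles, rose from 14.1, 23.6 and 32.8 CPM in WT to 56.2, 67.5 and 90.6 CPM in ob/ob libraries (1.62 ± 0.21, adjusted p = 1.27e-07). Myo1e, a membrane-bound myosin of the foot process, rose from 775, 865 and 1221 CPM to 1432, 1545 and 1813 CPM (0.78 ± 0.07, adjusted p = 1.96e-11). Inf2, a formin, rose from 304, 339 and 359.8 CPM to 431, 506 and 588 CPM (0.61 ± 0.05, adjusted p = 1.26e-12). These 3 genes did not overlap between the genotypes. The crosslinkers and bundle proteins Tpm1 (0.66), Vim (0.60), Flna (0.58), Actn1 (0.57) and Palld (0.55) formed a second tier. The podocyte alpha-actinin Actn4, at a higher level per length (977 TPM in WT against 104 TPM for Actn1), rose by less (0.26). Synpo, the gene of the foot process protein synaptopodin, had 6146 ± 345 CPM in WT and 6292 ± 296 CPM in ob/ob (SD, 8 libraries each) and was not called (0.03).

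Integrin adhesion genes moved in both directions. Of 30 tested, 11 rose (36.7%, against 9.68% of all genes) and 3 fell (10%, against 6.52%), with a median of 0.06. This balance did not hold on the TPM scale, where 3 rose and 4 fell and more of all genes were called lower than higher. Itga5, the fibronectin receptor chain, rose from 10.3 ± 2.60 to 19.3 ± 2.35 CPM (0.91) and the adaptor gene Bcar1 rose by less (0.40). Itga3, the chain of the main laminin receptor of podocytes, fell slightly (-0.23), as did Itgb8 (-0.41).

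**Figure D2:**
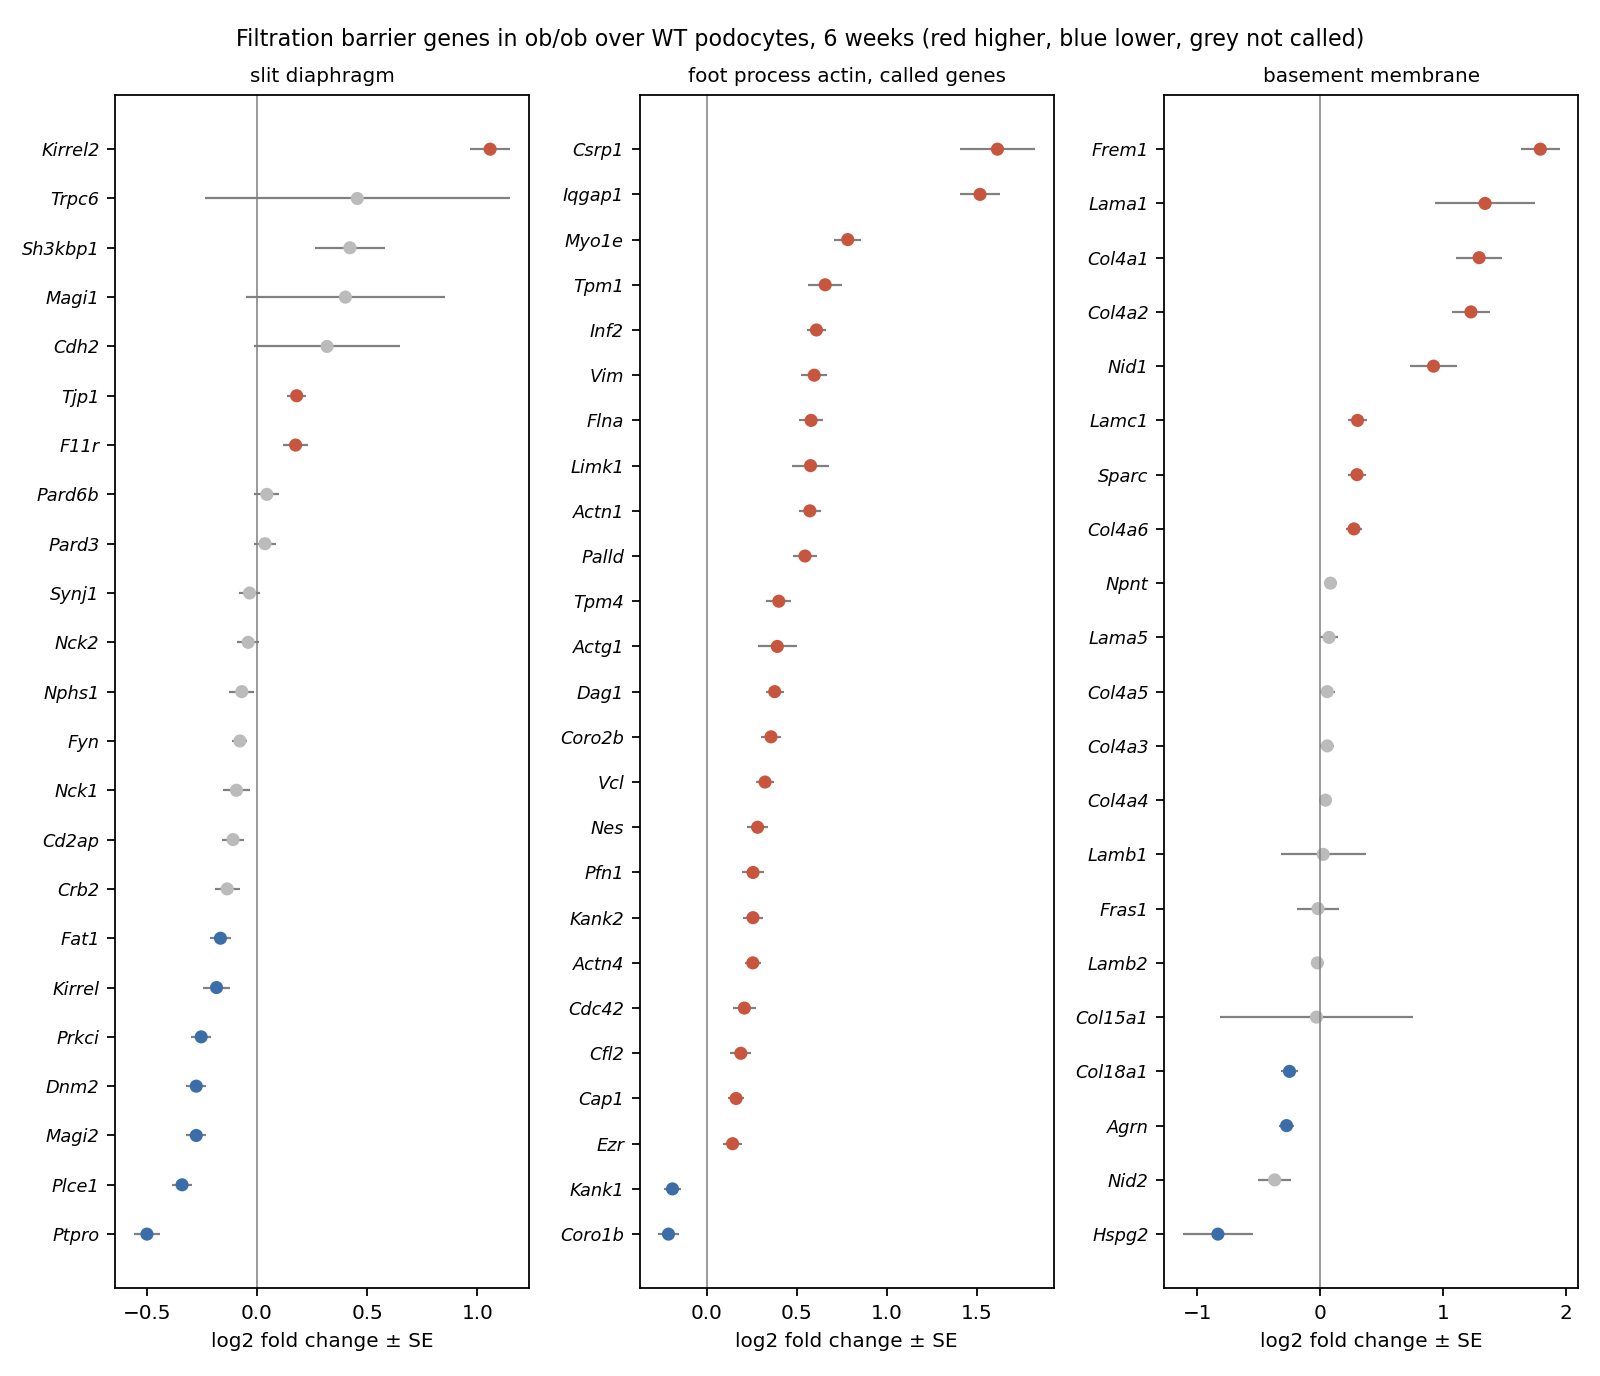
Log2 fold changes of ob/ob over WT podocytes at 6 weeks, with standard errors, for tested slit diaphragm and basement membrane genes and for the called genes of the foot process actin list. Ptpro and Plce1 lie at the low end of the slit diaphragm panel, 23 of the 25 called actin genes lie to the right of 0, and Col4a1 and Col4a2 stand apart from Col4a3, Col4a4 and Col4a5.

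In the basement membrane list Col4a1 and Col4a2 changed most among the collagen IV chains. 8 of 21 genes rose (38.1%, against 9.68% of all genes) and 3 fell (14.3%, against 6.52%), with a median of 0.06. On the TPM scale 6 rose and 3 fell. Col4a1 and Col4a2, whose chains form the network of most basement membranes and of the immature glomerulus, rose together. Col4a1 had 37.9, 52.7 and 61.9 CPM in WT and 77.6, 119.7 and 192 CPM in ob/ob libraries (1.29 ± 0.19, adjusted p = 1.27e-06). Col4a2 had 79.3, 107 and 138 CPM in WT and 161, 237 and 352 CPM in ob/ob libraries (1.23 ± 0.16, adjusted p = 1.13e-07). Neither overlapped between the genotypes. The chains of the mature filter, which podocytes make, were at much higher levels per length and were not called. Col4a3 was at 1695 TPM in WT and 1661 TPM in ob/ob, against 15.2 and 35.7 TPM for Col4a1 (log2 fold changes on the CPM scale 0.06 for Col4a3, 0.04 for Col4a4 and 0.06 for Col4a5). Col4a6, whose chain joins Col4a5 in a further network outside the glomerular filter, rose on the count scale (0.27) and was not called on the TPM scale. Mesangial cells hold these transcripts at a higher level (Col4a1 at 7848 ± 1739 CPM in WT, SD, 8 libraries). Of the 8 mesangial markers 0 were called higher and 2 lower in the ob/ob podocyte libraries, Pdgfrb among the latter (-1.01), and the part of mesangial RNA in these values was not tested. Frem1, a matrix protein of epithelial basement membranes, rose from 4.65, 8.64 and 11.8 CPM to 18.3, 28.5 and 43.5 CPM (1.79 ± 0.16, adjusted p = 6.81e-12), and Nid1 (0.92) and Lamc1 (0.30) also rose. Agrn (-0.27) and Col18a1 (-0.25), both heparan sulphate proteoglycans, fell.

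Col4a1 and Col4a2 lie head to head on chromosome 8 and are transcribed away from each other, with 20 bases between the annotated starts. Their promoter windows (RefSeq, GRCm38.p6, 250 bases before to 50 after the start, chr8:11312777-11313076 on the minus strand and chr8:11312555-11312854 on the plus strand) are shown because the 2 genes moved together. Capitals mark the 78 bases that both windows hold, on opposite strands.
Col4a1: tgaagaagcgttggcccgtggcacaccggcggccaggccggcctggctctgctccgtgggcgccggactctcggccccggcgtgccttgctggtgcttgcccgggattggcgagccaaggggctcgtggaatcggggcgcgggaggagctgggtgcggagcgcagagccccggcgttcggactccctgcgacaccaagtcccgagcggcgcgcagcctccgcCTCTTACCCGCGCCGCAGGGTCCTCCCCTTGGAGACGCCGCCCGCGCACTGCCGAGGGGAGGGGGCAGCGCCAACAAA
Col4a2: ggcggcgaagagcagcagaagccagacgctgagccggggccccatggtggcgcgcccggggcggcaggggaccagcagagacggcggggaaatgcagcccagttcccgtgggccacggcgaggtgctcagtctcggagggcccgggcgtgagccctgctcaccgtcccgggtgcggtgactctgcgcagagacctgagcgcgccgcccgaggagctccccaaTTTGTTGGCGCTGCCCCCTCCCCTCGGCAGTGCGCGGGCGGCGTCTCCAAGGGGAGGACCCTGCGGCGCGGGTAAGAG
Each window was over 73% G and C, and neither held a CATTCC, CArG, ACGTG, AP-1 or TATAAA match.

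Enzymes that shape the matrix also changed. Of 28 genes in this list 8 rose (28.6%, against 9.68% of all genes) and 3 fell (10.7%, against 6.52%), with 4 and 1 on the TPM scale. Loxl2, a lysyl oxidase that crosslinks collagen IV, rose from 79.2, 111 and 159 CPM in WT to 202, 302 and 333 CPM in ob/ob libraries (1.33 ± 0.09, adjusted p = 3.14e-15). Plod2, a lysyl hydroxylase of collagen crosslinks, rose from 662, 747 and 871 CPM to 1156, 1248 and 1519 CPM (0.77 ± 0.07, adjusted p = 7.94e-13). Both were separated between the genotypes.

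The transcription factors that define the podocyte did not rise. Of 23 tested, 0 rose (0%, against 9.68% of all genes) and 6 fell (26.1%, against 6.52%, median -0.10), with 0 and 7 on the TPM scale. Zbtb20, a zinc finger factor, was among those that fell (-0.35). The factor genes Lmx1b, Zhx2 and Nfia were also called lower. Lmx1b lost its call without WT female 2 (log2 fold change -0.14), and Zhx2 lost it on the TPM scale. Nfia lost its call in many settings. Among them were the fits without WT female 1, 2 or 3 or without WT male 1, 2 or 3 (-0.16 to -0.14). It also lost its call without the filter on low counts, without the sex term and in the 6-week libraries alone. Wt1, the master regulator of the lineage, was at 872 ± 56.0 CPM in WT and 875 ± 38.9 CPM in ob/ob (0.00 ± 0.03, adjusted p = 0.952), and Tcf21, Foxc1 and Foxc2 were not called.

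Targets of MRTF and SRF, the pair of factors through which actin polymerization drives gene expression, rose. 15 of 28 were called higher (53.6%, against 9.68% of all genes) and 0 lower, the median was 0.39, and on the TPM scale 12 rose and 0 fell. This family is one that the study itself examined in these samples, and 7 of the 15 are also in the foot process actin list. Besides Csrp1, Cnn2, the gene of calponin-2, rose from 23.4, 30.2 and 34.7 CPM to 43.9, 55.8 and 65.5 CPM (0.91 ± 0.10, adjusted p = 1.28e-09), and Tagln2, a transgelin, from 32.2, 39.2 and 46.9 CPM to 51.0, 63.7 and 76.3 CPM (0.72 ± 0.10, adjusted p = 2.54e-07). Neither overlapped between the genotypes. The smooth muscle members Acta2 (1.29 ± 1.09 CPM in WT, -0.79), Tagln (5.61 ± 1.83 CPM, 0.46) and Myl9 (1.72 ± 0.755 CPM, 0.71) were low and were not called.

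The CArG box is the sequence that SRF binds. Of the 15 genes called higher, 14 had a promoter window and 4 of these held a CArG match. Over all tested genes with a window the share was 1.6% (2.17% of those called higher and 0.636% of those called lower). The list was drawn up as MRTF/SRF targets and its members not called were not counted, so the 4 of 14 is no result about ob/ob. The windows of the 3 genes below, from RefSeq (GRCm38.p6, plus strand, chr10:79988350-79988649, chr14:20929148-20929447 and chr16:57548992-57549291), are shown because each holds the same 10 letters, in capitals, which read alike on both strands.
Cnn2: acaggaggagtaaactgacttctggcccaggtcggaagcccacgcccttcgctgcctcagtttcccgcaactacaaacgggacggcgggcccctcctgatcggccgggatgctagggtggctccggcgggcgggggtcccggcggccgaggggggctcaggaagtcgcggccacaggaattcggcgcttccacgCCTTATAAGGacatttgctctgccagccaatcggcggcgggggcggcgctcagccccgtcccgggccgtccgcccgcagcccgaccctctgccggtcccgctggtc
Vcl: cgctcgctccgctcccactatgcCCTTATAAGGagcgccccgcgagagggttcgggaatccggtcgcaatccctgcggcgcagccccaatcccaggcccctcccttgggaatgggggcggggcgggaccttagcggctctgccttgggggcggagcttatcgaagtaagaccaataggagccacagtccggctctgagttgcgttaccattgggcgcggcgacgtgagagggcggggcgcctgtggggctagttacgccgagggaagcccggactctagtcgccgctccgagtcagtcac
Filip1l: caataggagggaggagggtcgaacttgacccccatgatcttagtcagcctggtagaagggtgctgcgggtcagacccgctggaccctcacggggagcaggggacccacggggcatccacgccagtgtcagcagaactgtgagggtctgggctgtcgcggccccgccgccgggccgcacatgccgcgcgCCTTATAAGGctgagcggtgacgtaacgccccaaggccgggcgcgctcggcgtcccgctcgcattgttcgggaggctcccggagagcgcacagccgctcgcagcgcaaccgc
Vcl, the gene of the adhesion protein vinculin (0.32), and Filip1l (0.36) rose by less than Cnn2. A match describes the letters of the window and does not show that SRF was bound there.

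YAP/TEAD targets, another group that responds to cell tension, had 8 of 24 higher (33.3%, against 9.68% of all genes) and 0 lower. Their median was 0.00, and on the TPM scale 5 rose and 0 fell. Ctgf, a secreted matrix regulator, had 428, 503 and 897 CPM in WT and 732, 1261 and 1434 CPM in ob/ob libraries (1.02 ± 0.24, adjusted p = 0.00197) with overlap. Axl, a receptor tyrosine kinase, rose from 188, 285 and 354 CPM to 455, 509 and 609.5 CPM without overlap (0.90 ± 0.08, adjusted p = 3.70e-12). The classic target Cyr61 was not called (-0.31), nor were Amotl2 (-0.13) and Lats2 (-0.05). Ankrd1 (0.72, 6.54 ± 1.46 to 10.8 ± 1.81 CPM) held the TEAD letters CATTCC at 2 places of its window, read on the opposite strand as GGAATG (RefSeq, GRCm38.p6, minus strand, chr19:36119795-36120094), and is shown with both in capitals.
Ankrd1: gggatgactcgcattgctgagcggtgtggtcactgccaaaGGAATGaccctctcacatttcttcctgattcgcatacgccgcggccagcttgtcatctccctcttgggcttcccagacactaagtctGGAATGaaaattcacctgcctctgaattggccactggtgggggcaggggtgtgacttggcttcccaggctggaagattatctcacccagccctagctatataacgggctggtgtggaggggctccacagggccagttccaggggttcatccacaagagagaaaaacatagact
CATTCC on either strand stood in 14.8% of all tested genes' windows, 15.7% of those called higher and 16.4% of those called lower.

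Genes of glycolysis and glucose uptake rose as often as the MRTF/SRF targets did. 15 of 28 rose (53.6%, against 9.68% of all genes) and 1 fell (3.57%, against 6.52%), with a median of 0.23. On the TPM scale 7 rose and 1 fell. Gapdh rose from 236, 274 and 324 CPM in WT to 347, 481 and 695 CPM in ob/ob libraries (0.87 ± 0.09, adjusted p = 1.39e-10). Pkm, the pyruvate kinase gene, rose from 166, 220.5 and 277 CPM to 280.5, 383 and 485 CPM (0.81 ± 0.07, adjusted p = 4.29e-12). Tpi1 rose from 28.1, 31.1 and 39.7 CPM to 41.5, 52.7 and 64.8 CPM (0.73 ± 0.07, adjusted p = 3.07e-11). Each gene's genotypes were separate, and Gapdh and Tpi1 have processed copies elsewhere in the genome that can share reads. Ldhb also rose (5.77 ± 1.37 to 11.7 ± 3.56 CPM, 1.03). The entry enzymes Hk1 (0.09) and Hk2 (-0.42) were not called, and the constitutive transporter Slc2a1 rose on the count scale (0.26) but was not called on the TPM scale. By length, Slc2a4 reached 5.28 TPM in ob/ob podocytes, against 16.3 TPM for Slc2a1.

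The branches that lead glucose away from glycolysis held shares of called genes near those of all genes. Of 24 genes of the polyol, pentose phosphate, hexosamine and glycogen routes, 3 rose (12.5%, against 9.68% of all genes) and 2 fell (8.33%, against 6.52%). On the TPM scale 2 rose and 3 fell. Log2 fold changes in this list ran from -0.42 to 0.87. In 2 of its genes all ob/ob libraries lay above all WT libraries, and in 0 they all lay below. Akr1b8, Uap1 and G6pdx were called higher. The sorbitol dehydrogenase gene Sord fell (-0.42), aldose reductase Akr1b3 was not called (-0.07), and neither was the glucose-responsive gene Txnip (-0.18). ACGTG, the core letters of the hypoxia response element, stood in the windows of 10 of the 14 glycolysis genes called higher that had one. Over all tested genes' windows the share was 28.5% (30.1% of those called higher, 29.3% of those called lower). Glycolysis genes not called were not counted, so the 10 of 14 is no result about ob/ob. The window of Pkm with 2 such matches, the second of its listed windows (RefSeq, GRCm38.p6, plus strand, chr9:59656977-59657276), is given as the example, with the matches, both on the opposite strand, in capitals.
Pkm: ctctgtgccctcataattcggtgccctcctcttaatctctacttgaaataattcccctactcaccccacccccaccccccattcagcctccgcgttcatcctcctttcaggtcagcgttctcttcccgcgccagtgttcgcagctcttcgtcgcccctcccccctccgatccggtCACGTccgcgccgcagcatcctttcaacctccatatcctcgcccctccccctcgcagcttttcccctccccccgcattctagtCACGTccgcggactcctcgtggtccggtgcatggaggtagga

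Among genes of insulin, IGF and leptin signalling, 4 of 34 rose (11.8%, against 9.68% of all genes) and 6 fell (17.6%, against 6.52%). On the TPM scale 3 rose and 5 fell. Irs1, the docking protein of the insulin receptor, rose from 95.1 ± 12.2 to 139.8 ± 26.0 CPM (0.56), while Insr (-0.10) and Irs2 (-0.05) were not called. Prkaa2, the alpha-2 subunit of the energy sensor AMPK, fell (-0.41). Lepr, the leptin receptor, was at 0.522 ± 0.336 CPM in WT and 0.440 ± 0.310 CPM in ob/ob and was not called, and neither was the feedback gene Socs3 (-0.19).

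A desaturase rose while a cholesterol exporter fell. Scd1, the desaturase that makes monounsaturated fatty acids, rose from 1.97, 4.10 and 5.90 CPM in WT to 14.1, 23.1 and 36.3 CPM in ob/ob libraries (2.52 ± 0.19, adjusted p = 1.07e-13). Abca1, the exporter of cellular cholesterol, fell from 55.6, 65.9 and 104 CPM to 26.7, 33.5 and 50.2 CPM (-1.04 ± 0.16, adjusted p = 3.94e-06). Neither gene overlapped between the genotypes. Mylip, a ubiquitin ligase of lipoprotein receptors, fell (-0.37). Over the list of cholesterol synthesis and uptake, 11 of 32 rose (34.4%, against 9.68% of all genes) and 3 fell (9.38%, against 6.52%). On the TPM scale, where more of all genes were called lower than higher, 4 rose and 5 fell.

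Fatty acid genes were mixed. Of 43 tested, 9 rose (20.9%, against 9.68% of all genes) and 5 fell (11.6%, against 6.52%), with 5 and 6 on the TPM scale. Angptl4, an inhibitor of lipoprotein lipase, fell from 2.24, 5.76 and 9.07 CPM to 1.12, 1.42 and 3.64 CPM (-1.84 ± 0.34, adjusted p = 8.63e-05) with overlap, and the monoglyceride lipase gene Mgll fell from 185, 223 and 242 CPM to 128, 149 and 171 CPM without it (-0.55 ± 0.06, adjusted p = 8.62e-10). Acaca, the carboxylase that starts fatty acid synthesis, fell (-0.31). Cpt1a, the gate of mitochondrial oxidation, was not called (-0.14).

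**Figure D3:**
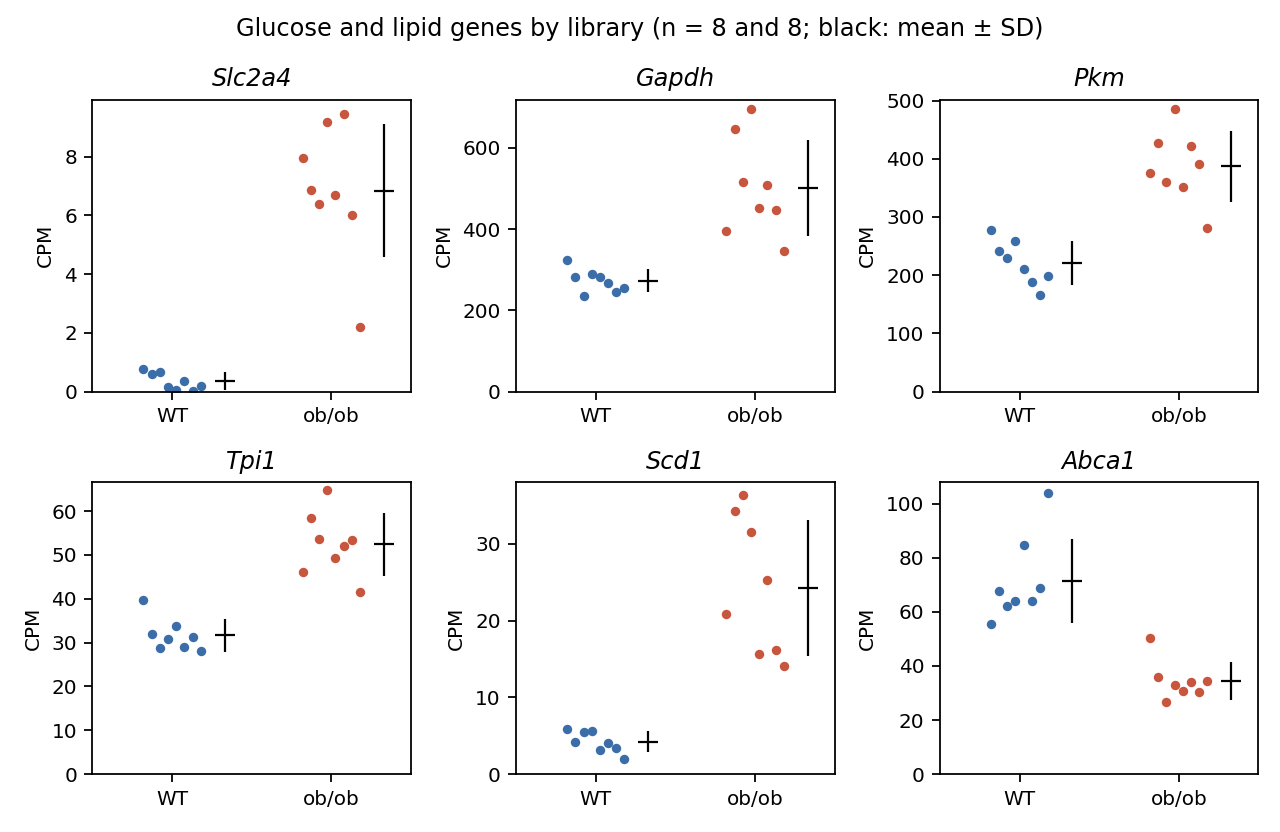
CPM of 6 glucose and lipid genes in each WT (blue, n = 8) and ob/ob (red, n = 8) podocyte library at 6 weeks on linear axes that start at 0, with the mean and SD of each group in black. Abca1 is lower and the other 5 genes are higher in ob/ob, with no overlap in any panel.

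Innate immune receptors moved in opposite directions. Tlr4, the receptor for lipopolysaccharide, rose from 0.984, 1.27 and 2.02 CPM in WT to 3.51, 4.88 and 6.55 CPM in ob/ob libraries (1.74 ± 0.20, adjusted p = 2.01e-09) and was separated between the genotypes. With Tlr5 and Tlr3 (0.59) rising and Tlr7 falling, 4 of the toll-like receptors were called. The adaptor gene Myd88 (-0.05) and the interferon-stimulated genes Ifit1 (0.21), Isg15 (0.21) and Irf7 (-0.30) were not. Over the list 4 of 23 rose (17.4%, against 9.68% of all genes) and 2 fell (8.70%, against 6.52%), with 3 and 3 on the TPM scale. Macrophages, which the CD45 gate should remove, express such receptors too. The 10 immune markers, of which 2 passed the filter on low counts, summed to 4.71 to 10.6 CPM in WT and 4.59 to 12.1 CPM in ob/ob libraries, and their part in these values was not tested. In the MHC class I list only the 2 H2-Q genes were called.

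Among genes that control coagulation and complement, 6 of 22 rose (27.3%, against 9.68% of all genes) and 1 fell (4.55%, against 6.52%), with the same counts on the TPM scale. After Thbd and Clu came Pros1, the gene of the anticoagulant protein S, which rose from 118, 204 and 273 CPM to 299, 372 and 441 CPM (0.88 ± 0.14, adjusted p = 5.21e-06), and S100a10, a plasminogen receptor subunit, from 38.1, 46.5 and 65.0 CPM to 69.8, 78.3 and 97.3 CPM (0.75 ± 0.09, adjusted p = 2.30e-08). Protein S is a cofactor of the protein C that thrombomodulin helps to activate. Plat, the tissue plasminogen activator gene, fell (-0.24).

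Signals that podocytes send to neighbouring cells moved in both directions. Of 32 tested, 5 rose (15.6%, against 9.68% of all genes) and 6 fell (18.8%, against 6.52%), with 3 and 6 on the TPM scale. Vegfa, on which the glomerular endothelium depends, was at 2861 ± 221 CPM in WT and 3096 ± 221 CPM in ob/ob and was not called (0.11). Gdnf and Pdgfa rose (above). Sema3f, a guidance cue, fell from 67.9, 78.5 and 95.1 CPM to 34.3, 51.7 and 63.3 CPM without overlap (-0.70 ± 0.13, adjusted p = 6.85e-05), and Angptl7 fell from 29.9 ± 11.1 to 9.97 ± 3.62 CPM with overlap (-1.58). In the TGF-beta and BMP list 7 of 33 rose (21.2%, against 9.68% of all genes) and 3 fell (9.09%, against 6.52%). On the TPM scale 4 of these genes rose and 3 fell. Bmp7, a growth factor made by podocytes, rose (298 ± 11.8 to 422 ± 24.9 CPM, 0.51), as did Fstl3, an activin antagonist (0.75), while the receptors Tgfbr1 (0.15) and Tgfbr2 (0.03) and the Smad2, Smad3 and Smad4 genes were not called.

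Calcium and vasoactive genes held single large changes. Cacna2d2, a subunit of voltage-gated calcium channels, fell from 97.6, 138 and 161 CPM to 47.9, 56.3 and 90.5 CPM (-1.16 ± 0.12, adjusted p = 4.17e-10). Kcnma1, the calcium-activated potassium channel, rose from 0, 0.0513 and 0.137 CPM to 0.972, 2.86 and 5.24 CPM (5.47 ± 0.58, adjusted p = 1.18e-09), so it was close to absent in WT. Both were separated. Npr3, the clearance receptor of natriuretic peptides, fell from 1054, 1235 and 1329 CPM to 787, 880.4 and 1042 CPM (-0.44 ± 0.05, adjusted p = 1.32e-08), and its signalling relative Npr1 also fell (-0.43). Trpc6, a calcium channel tied to inherited podocyte disease, was at 0.139 ± 0.159 CPM in WT and was not called (0.46). The calcium channels and signalling list as a whole had 5 of 26 higher (19.2%, against 9.68% of all genes) and 3 lower (11.5%, against 6.52%). On the TPM scale 2 were higher and 4 lower. The vasoactive receptor list had 3 of 20 higher (15%) and 4 lower (20%), with 2 and 4 on the TPM scale.

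Genes of oxidative phosphorylation shifted by small amounts, and some antioxidant genes by more. Of 39 nuclear genes of oxidative phosphorylation, 13 rose (33.3%, against 9.68% of all genes) and 0 fell, with a median of 0.15. On the TPM scale, where more of all genes were called lower than higher, 3 rose and 0 fell (median 0.06). Of 13 messenger RNAs of the mitochondrial genome 3 rose (23.1%, and 0 on the TPM scale). This stood beside the higher mitochondrial share given above, whose part in these counts was not tested. In the NRF2 antioxidant list 9 of 27 rose (33.3%) and 1 fell (3.70%, against 6.52% of all genes), with 6 and 2 on the TPM scale. The risers were Srxn1 (0.73), catalase (Cat, 0.44) and Gpx3 (0.85) among others, while Hmox1 fell (-0.72) and the classic targets Gclc (0.19) and Gclm (0.16) were not called.

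The unfolded protein response (3 of 24 higher, 0 lower) and the cell cycle list (1 higher, 1 lower of 28) stayed near or under the share of all genes. On the TPM scale the former had 2 higher and 0 lower and the latter 2 higher and 2 lower. Hspa5 (0.11) and Ddit3 (0.01), both markers of stress in the endoplasmic reticulum, were not called, and Mki67, the proliferation marker, was at 0.170 ± 0.178 CPM in WT and 0.150 ± 0.187 CPM in ob/ob. The dissociation-sensitive genes were high in both genotypes and scattered. Hspa1a had 784, 1546 and 2127 CPM in WT and 611, 775 and 1419.8 CPM in ob/ob libraries and was not called (-0.70 ± 0.43, adjusted p = 0.298), and Fos was at 3314 ± 967 and 3331 ± 281 CPM (0.01). Of 26 immediate early genes 0 were called higher and 3 lower (11.5%, against 6.52% of all genes), with 0 and 4 on the TPM scale. Among the 3 called lower in edgeR, Egr2 and Jund lost their call without WT female 2 or without WT male 2 or 3. Jund also lost it without WT female 1, ob/ob female 2, 3 or 4, or ob/ob male 3 or 4. Heat shock genes and chaperones had 5 of 26 higher (19.2%, against 9.68% of all genes) and 2 lower (7.69%), with 3 and 3 on the TPM scale.

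Lysosome and autophagy genes had 10 of 33 higher (30.3%, against 9.68% of all genes) and 2 lower (6.06%, against 6.52%). On the TPM scale 2 rose and 1 fell. The list of endocytosis and albumin receptors, which holds Cubn, had 5 of 19 higher (26.3%) and 0 lower (2 and 0 on the TPM scale). Of 4 parietal epithelium markers that passed the filter on low counts, 2 rose and 1, Ncam1, fell (-0.45). Cd44, the hyaluronan receptor, had 0.432, 1.02 and 2.44 CPM in WT and 1.55, 3.86 and 5.59 CPM in ob/ob libraries (1.69 ± 0.29, adjusted p = 1.40e-05), and Cldn1, a tight junction claudin, rose from 16.7, 22.6 and 26.5 CPM to 37.8, 53.8 and 73.8 CPM without overlap (1.34 ± 0.17, adjusted p = 1.36e-07). The parietal marker Pax8 was not called (-0.03), and the sum of the 8 parietal markers overlapped between the genotypes (112 to 154 CPM in WT and 125 to 164 CPM in ob/ob libraries). Mustn1, a muscle gene, rose from 2.31 ± 0.815 to 18.5 ± 5.61 CPM (3.00), whereas the 7 smooth muscle and renin markers other than Mustn1 overlapped (227 to 315 CPM in WT and 246 to 317 CPM in ob/ob).

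**Figure D4:**
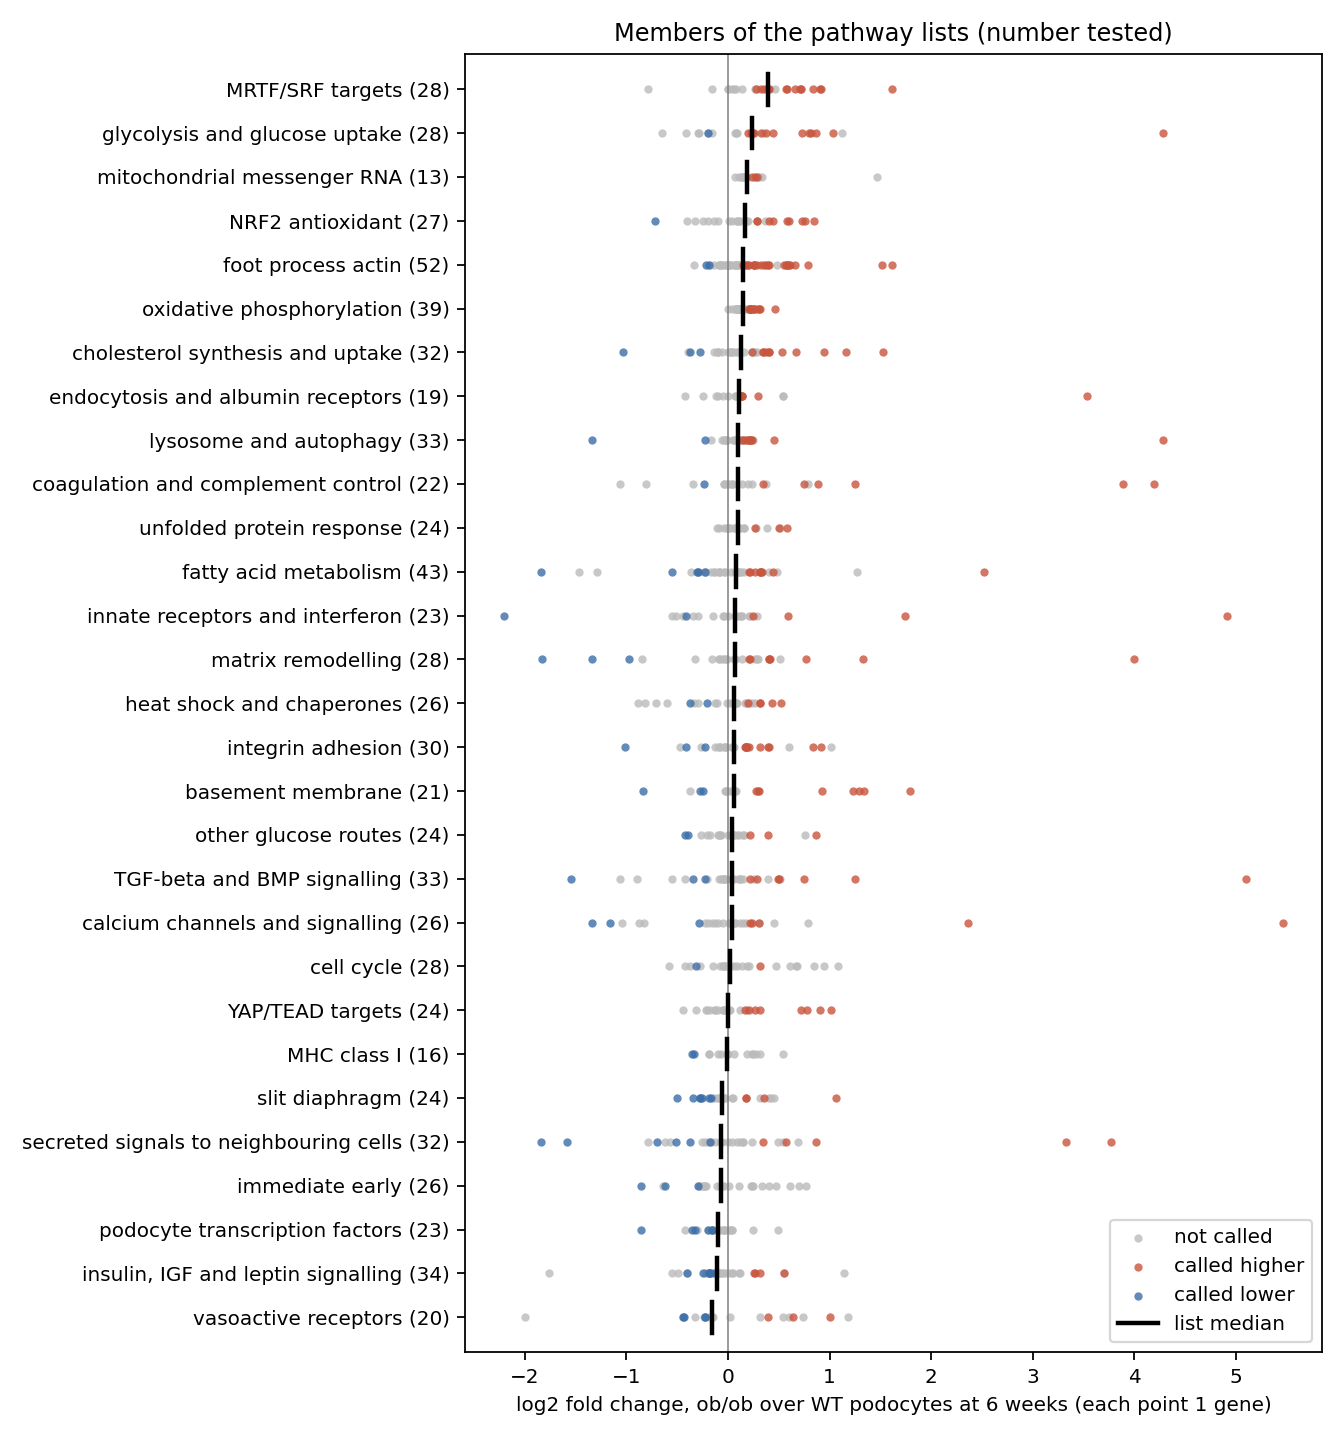
Log2 fold changes of ob/ob over WT podocytes at 6 weeks for the tested members of 29 gene lists, each point 1 gene, coloured by its call, with the list median as a black bar and the number tested in brackets. MRTF/SRF targets have the highest median (0.39) and glycolysis the next (0.23), and no podocyte transcription factor is called higher.

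The called genes differed from the rest in kind and level as well. Of the genes called higher 96.7% were protein coding, of those called lower 82.6%, and of all tested genes 75.5%. Their median level in WT was 26.9 CPM for genes called higher, 32.9 CPM for genes called lower and 7.72 CPM for all tested genes, and a test has more power at higher counts. Calls were not gathered around the disrupted gene: of 115 tested genes within 10 Mb of Lep on chromosome 6, 16.5% were called, against 16.2% of all genes.

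The effect of the genotype was compared between the sexes in the same 16 libraries, with 4 females and 4 males of each genotype. No gene of 16131 tested differed between males and females in edgeR's interaction test (0%), while 459 had an unadjusted p under 0.05 and DESeq2 called 4. The smallest adjusted p in edgeR was 0.838. Slc6a13, a transporter of GABA and betaine, rose by 2.44 ± 0.29 in females and 4.74 ± 0.35 in males on the log2 scale. It was the only one of the 4 DESeq2 calls also called in the genotype comparison. Gm14288, Rpl21-ps15 and Gm20390, the others, had extreme DESeq2 log2 differences of 25.8, -24.1 and -22.0. Their unadjusted p in edgeR's test was 0.0155, 0.0661 and 0.0729. Effects of the leading genes were close in both sexes, such as Lgals3 (4.29 in females and 4.28 in males), Tlr7 (-2.20 and -2.21), Iqgap1 (1.46 and 1.58) and Scd1 (2.53 and 2.51). With 4 libraries in each cell of this design, small differences were not detectable.

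The 6-week effect was then set against that at 12 weeks (16 libraries) and 18 weeks (14 libraries) by the difference between the effects. At 12 weeks 95 genes differed (0.547%), 21 with a higher (0.121%) and 74 with a lower (0.426%) log2 fold change than at 6 weeks. Of the 1681 genes that were higher in ob/ob at 6 weeks, 42 had a smaller rise at 12 weeks and 4 a larger one. Scd1 had the largest loss. Its log2 fold change was 2.52 ± 0.19 at 6 weeks, 1.10 ± 0.18 at 12 weeks and 0.84 ± 0.21 at 18 weeks, and the differences from 6 weeks were called at both ages (adjusted p = 0.00513 and 0.00153 in edgeR's test). Epb4.1l1, a gene that links the membrane to the actin skeleton, had a smaller rise at 12 weeks as well (1.56 at 6 weeks and 0.26 at 12 weeks), as did the matrix gene Adamtsl5 (1.47 and 0.53).

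At 18 weeks 37 genes differed from 6 weeks (0.213%), 19 higher and 18 lower. The adhesion and MRTF/SRF gene Tgfb1i1, which encodes Hic-5, went from 0.84 ± 0.13 at 6 weeks to -0.17 ± 0.14 at 18 weeks (adjusted p of the difference 0.00536), and the lysosomal tetraspanin gene Cd63 from 1.35 to 0.65. For other genes the difference between the genotypes was larger at the later ages. Trpm3, a calcium-permeable channel, had log2 fold changes of 1.25 ± 0.19, 2.46 ± 0.19 and 2.95 ± 0.23 at the 3 ages, and R3hdml of 0.68 ± 0.16, 1.67 ± 0.17 and 2.45 ± 0.21. Ucp2, a carrier of the inner mitochondrial membrane, and Acsl1, a fatty acid activating enzyme, were lower in ob/ob at 6 weeks (-0.30 and -0.23) and had positive values at 12 weeks (0.26 and 0.23) and 18 weeks (0.33 and 0.30). Each age was a separate set of mice, so age and the time of collection cannot be told apart. At 18 weeks age also went together with sequencing depth, and the groups were not balanced by sex, which was a covariate.

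The podocyte effect was also compared with the effect in the 16 mesangial and 16 gEC libraries of the same age. Against mesangial cells 1293 of 18808 genes differed (6.87%), 623 with a higher (3.31%) and 670 with a lower (3.56%) log2 fold change in podocytes. Against gECs 970 differed (5.16%), 500 higher (2.66%) and 470 lower (2.5%). In this fit of the 3 cell types, 6.81% of genes were called higher and 3.7% lower in ob/ob podocytes, 8.45% and 4.24% in mesangial cells, and 6.29% and 2.71% in gECs. Camk2a, a calcium-dependent kinase best known from neurons, changed in opposite directions. It rose in podocytes from 0.772 ± 0.499 to 7.46 ± 2.55 CPM (3.32), fell in mesangial cells from 24.6 ± 2.83 to 7.72 ± 2.08 CPM (-1.69) and fell in gECs (-0.94, SD over 8 libraries). Tlr7 fell in podocytes and rose in mesangial cells (1.35 ± 0.33, adjusted p = 0.00417), where it was low (1.82 CPM in WT and 4.69 CPM in ob/ob on average). Abca1 fell in podocytes and rose in mesangial cells (0.75) and in gECs (0.49), with adjusted p of the differences 6.26e-08 and 1.59e-06.

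Several genes that rose from a low level in ob/ob podocytes were expressed by other glomerular cells in WT mice. In gECs of WT mice Clu was at 58.5 ± 10.6 CPM, Tnfsf10 at 98.1 ± 21.9 CPM and Thbd at 434 ± 52.4 CPM (SD, 8 libraries). None of these 3 was called in gECs, and the podocyte effect was larger for each (differences 3.90, 4.02 and 3.46 on the log2 scale, adjusted p at most 2.33e-05). In the podocyte libraries 0 of the 9 gEC markers were called higher, and the part of gEC RNA in the podocyte values was not tested. Slc2a4 was at 10.1 ± 1.41 CPM in WT mesangial cells and did not change in these cells (-0.12, adjusted p = 0.835). Its mesangial level was above that in ob/ob podocytes, although the 2 cell types were scaled in separate fits. Epas1 was far higher in the other cell types, at 6064 ± 246 CPM in mesangial cells and 3599 ± 212 CPM in gECs of WT mice, and its log2 fold change in gECs was 0.33, so that the podocyte effect was lower (-1.74, adjusted p = 6.53e-10). Iqgap1 rose in podocytes and was not called in the others (0.04 and 0.08, adjusted p of the differences 8.16e-15 and 1.19e-14).

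Some genes moved the same way in gECs as in podocytes, at a far lower level. Tlr5 went from 0.0141 to 0.261 CPM and Gdnf from 0.0281 to 0.493 CPM in gEC libraries, which also held the podocyte gene Nphs1 at 126 ± 90.3 CPM in WT and 81.7 ± 36.2 CPM in ob/ob. The part of this podocyte RNA in the gEC values was not tested.

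**Figure D5:**
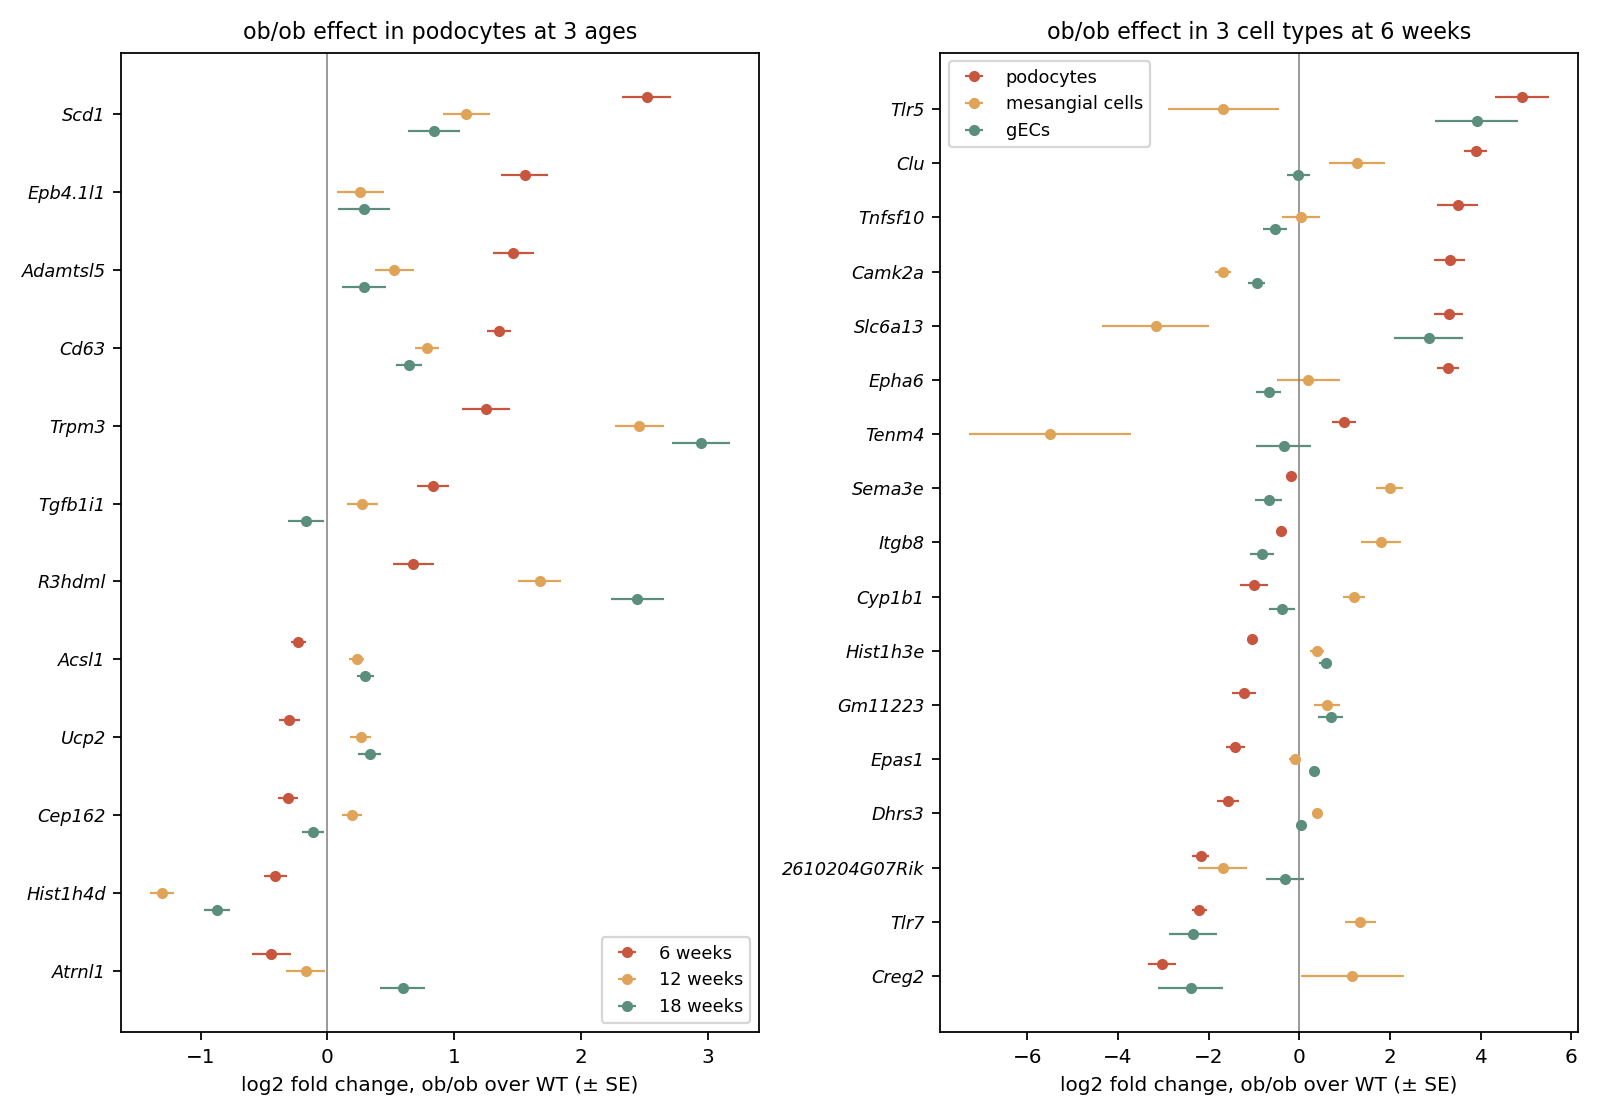
Log2 fold changes of ob/ob over WT with standard errors. On the left, genes whose podocyte effect differed most from 6 weeks at 12 or 18 weeks, at the 3 ages, where Scd1 falls from 2.52 to 0.84 and R3hdml climbs from 0.68 to 2.45. On the right, genes whose 6-week effect differed most between podocytes and mesangial cells or gECs, where Camk2a is positive in podocytes and negative in both other cell types.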

How the data were processed

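RNA from sorted podocytes was amplified with a stranded SMART-Seq kit and sequenced in single reads. According to the processing notes, the authors ran Bowtie2 2.3.3.1 and RSEM 1.3.0 against the mm10 genome after quality control in FastQC 0.11.5. The annotation release is not given in the sources used here. The authors deposited 1 table per library with an expected count and a TPM value (transcript abundance scaled by length and library total) for each of 46517 genes. FPKM and length columns were not used.

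Expected counts were rounded and filtered with filterByExpr, which left 17366 genes. Libraries of podocytes at 3 ages were fitted together (R 4.3.3, edgeR 4.0.16, TMM, quasi-likelihood test, sex as covariate), so that all groups shared 1 estimate of the spread, and the 6-week genotype effect was tested with Benjamini-Hochberg adjustment at 0.05. Interaction terms gave the differences between ages, sexes (16131 genes) and cell types (18808 genes, without a term for mouse). All values given per library are CPM after TMM scaling, and ± after a mean is the SD. Podocyte CPM were scaled in the fit of the 3 ages, and mesangial and gEC CPM in the fit of the 3 cell types. The labels do not name the mouse of a library, and p-values measure the spread between these libraries. The 3 cell types of 1 age share sex and replicate numbers, and same-numbered libraries may come from 1 mouse, which the cell type comparison does not model. The scripts were tested on simulated data. Genes were positioned by GENCODE M21 (46005 matched), and 197 entries share a symbol.

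Named were the 12 called genes without overlap that changed most each way with at least 5 CPM in the higher group, the 8 with the largest absolute change in mean CPM each way, members of 29 pathway and 10 marker lists, and the 5 largest differences each way in each interaction. A few genes that these rules name are not reported here. Members and lists were chosen with earlier results of these data known. Alternatives were RLE scaling, no filter, DESeq2 1.42.0, limma 3.58.1 on log2(TPM + 1) and log2(TPM + 0.1), the 6-week libraries alone, no sex term, a replicate block, each sex alone, a fold of at least 1.5, and each library left out. TPM rescaled without mitochondrial RNA, and same-numbered libraries of the 3 cell types as a block, were added after seeing the data. A promoter window was found in RefSeq for 10581 of the 17366 genes. Among the 40 genes named for the size of their change 27 had a window.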

Additional observations from a re-analysis of the deposited data

Results flagged for a closer look

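In 10 of 174 sets of 8 libraries, 1 library stood apart from the other seven by Dixon's gap test at the 95% level, which chance gives in about 1 in 20 sets. WT female 1 was high for Spon2 (2.28 CPM, nearest 1.05), Gdnf (5.82 CPM, nearest 2.12) and Cgnl1 (2772 CPM, nearest 2349). WT male 3 was low for Podxl (16877 CPM, nearest 18911). Among ob/ob libraries, female 4 was low for Plce1 (926 CPM, nearest 1096) and high for Angptl4 (3.64 CPM, nearest 1.97). Female 1 was high for Abca1 (50.2 CPM, nearest 35.8) and female 3 for Pdgfa (13.9 CPM, nearest 6.55). Male 2 was high for Tnfsf10 (19.4 CPM, nearest 9.98) and male 4 low for Loxl2 (202 CPM, nearest 279). All of these genes but Podxl were called, and the call remained without the library named.

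The genotype effect differed between ages in edgeR's test of the difference, given as the later log2 fold change minus that at 6 weeks. At 12 weeks the differences were 1.21 for Trpm3, 1.00 for R3hdml, 0.57 for Ucp2, 0.50 for Cep162, 0.46 for Acsl1, -1.42 for Scd1, -1.30 for Epb4.1l1, -0.94 for Adamtsl5 and -0.89 for Hist1h4d. At 18 weeks they were 1.77 for R3hdml, 1.69 for Trpm3, 1.04 for Atrnl1, 0.63 for Ucp2, 0.53 for Acsl1, -1.68 for Scd1, -1.27 for Epb4.1l1, -1.18 for Adamtsl5, -1.004 for Tgfb1i1 and -0.71 for Cd63. The 6-week rise of Scd1 thus stood out at 6 weeks against both later ages.

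The effect also differed between cell types, given as podocyte minus the other log2 fold change. Against mesangial cells the differences were 6.64 for Slc6a13, 6.60 for Tlr5, 6.42 for Tenm4, 5.01 for Camk2a, -4.22 for Creg2, -3.55 for Tlr7, -2.22 for Itgb8, -2.20 for Cyp1b1 and -2.17 for Sema3e. Slc6a13, Tlr5, Tenm4 and Creg2 were near 0 in mesangial libraries, so these differences rest on few mesangial counts. Against gECs they were 4.26 for Camk2a, 4.02 for Tnfsf10, 3.99 for Epha6, 3.90 for Clu, -1.90 for Gm11223, -1.86 for 2610204G07Rik, -1.74 for Epas1, -1.63 for Dhrs3 and -1.62 for Hist1h3e.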

How the results depend on the processing

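The number of genes called at 6 weeks (2814) stayed within 1.5 times under RLE scaling (2858), no filter (2540), DESeq2 (3025), log2(TPM + 1) (2254), log2(TPM + 0.1) (2264), the 6-week libraries alone (2463) and no sex term (2762). Without single libraries it ranged from 2337 to 3167. It was 802 in females alone and 1123 in males alone, where fewer libraries entered the fit, and 820 when a change of at least 1.5-fold was also asked. On log2(TPM + 1) the median of all genes moved to -0.07. Of 297 named called genes 199 kept their call there, 91 lost it and 7 turned, and the cause was not tested. With mitochondrial RNA left out of the TPM total 1924 genes were called. DESeq2 called more genes in the differences from 6 weeks, 285 at 12 weeks and 109 at 18 weeks, and 4 between the sexes, where edgeR called 0 without any single library. Against the other cell types it called 1604 (mesangial) and 1258 (gEC). Whether same-numbered WT and ob/ob libraries belong together was not settled. Their deviations correlated at -0.04 to 0.23 (median 0.07), above 0.1 in 2 of 8 pairs. Among the ob/ob libraries of their sex, 5 of 8 WT libraries correlated best with their own number. With sex and number as a replicate block in the 6-week libraries alone 3178 genes were called, against 2463 without the block. Of these 1837 were higher and 1341 lower, and of the 26 immediate early genes 0 were called in either direction. The median of the latter was -0.32 in females alone and 0.13 in males alone, where 4 were lower and 1 was higher respectively. Across cell types, podocyte libraries correlated best with their own number in 12 of 16 (mesangial) and 13 of 16 (gEC) cases, with a median of 0.0958 and 0.116. With such libraries as a replicate block 1541 and 1140 differences were called, against 1293 and 970, and 1233 and 910 were called in the same direction by both. R3hdml at 12 weeks, Atrnl1 at 18 weeks, Creg2 against mesangial cells and 2610204G07Rik against gECs lost their difference without the filter. Genes under about 1 CPM rest on few counts in each library.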
